A study of Drosophila melanogaster with 11 samples.

Results

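Whole embryos of Drosophila melanogaster collected 2–4 h after egg deposition (AED) were compared by bulk RNA-seq with embryos collected 14–17 h AED, and the genes that were lower or higher in the older embryos were described by what they are known to do. The libraries were chosen by the window in their labels, and they number 7 of the 11 libraries of the series, 3 at 2–4 h and 4 at 14–17 h. All were made from polyA RNA of wild-type Oregon-R embryos, which carry no transgene and no targeted mutation and which received no treatment. Age is the difference set by design, and the collection windows were also of unlike width. The paper names both HiSeq and NextSeq instruments for its mRNA sequencing, and the labels used here do not say which library ran on which. Whether the instrument follows the window is therefore not known here. Each library is a pool of whole embryos whose ages spread over the window, and the replicates are independent collections. The comparison answers which genes had a higher or lower share of the embryo's polyA RNA at 14–17 h than at 2–4 h. The series also holds 2 libraries at 14–14.5 h and 2 at 17–17.5 h, which were kept out of the main test and are given as values where they bear on a gene.

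In the young embryo, development starts on RNA and protein that the mother loaded into the egg. Nuclei first divide in rapid synchronous cycles of DNA replication and mitosis, with little transcription. The maternal RNA is then cleared, the zygotic genome is switched on, the nuclei are enclosed in cells, and gap, pair-rule, segment polarity and dorsoventral genes divide the embryo into segments and germ layers. In the old embryo most cells have left the cell cycle, muscles contract, neurons form synapses, the gut and the tracheal tubes are shaped, and the epidermis secretes the larval cuticle.

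The authors assigned reads to genes with Kallisto, which gives an estimated count per gene, and those counts were rounded here. Totals ran from 14472809 estimated counts in replicate 2 at 2–4 h to 38904916 in replicate 1 at 14–17 h. Levels are given as CPM, that is counts scaled to one common library total with TMM factors, which are not divided by gene length and are therefore compared between windows and not between genes. A floor of 3 counts corresponded to between 0.0793 and 0.187 CPM and covers counting error only. A level is relative to all RNA in its library, and in whole embryos fewer cells of a type and less RNA per cell cannot be told apart. Replicate 2 at 2–4 h, the shallowest library, and replicate 4 at 14–17 h differed most from the other replicates of their windows, with a median absolute difference of 0.224 and 0.121 on the log2 scale over 8619 genes. Without the first, 5611 genes were higher and 5132 lower at 14–17 h, and without the second the numbers were 5556 and 4919, against 5606 and 4928 with all libraries.

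Reads were counted on the whole span of each gene, introns included, so a gene that lies inside another gene shares its reads with it. Of 11539 tested genes found in the annotation, 1496 (12.96%) had at least 50% of their exons inside other genes, and 5925 overlapped no other gene. Among genes that were at least 16-fold lower at 14–17 h, 144 of 475 (30.3%) were of the first kind. Several genes of this kind are listed at 0 in every library of one window. Kr, a gap gene whose exons lie wholly inside the span of CG9380, stood at 198, 185 and 197 CPM at 2–4 h and at 0 in all 4 libraries at 14–17 h. Cdc6, a loader of the replicative helicase that lies inside Zasp66, a Z-disc gene that rose, stood at 266, 203 and 258 CPM and then at 0 in all 4. How the shared reads were divided between such partners was not tested. The values below are therefore mainly those of genes with under 10% of their exons inside other genes, and the share is printed beside any gene that has more.

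A large majority of the transcriptome differed between the windows. Counts were tested two-sided by the quasi-likelihood F test of edgeR, which gave every adjusted p below (Benjamini-Hochberg). Of 11623 genes, 10534 (90.6%) passed an adjusted p of 0.05: in the older embryos 5606 (48.2%) were raised and 4928 (42.4%) reduced. Every old library lay above every young one for 5587 genes (48.1%), and below every young one for 4879 (42%). The largest rises and falls named below were chosen among such genes, so windows that do not overlap were a condition there. At a fold change of at least 16, 2647 (22.8%) were higher and 478 (4.11%) lower. Of those, 354 and 99 had 0 counts in every library of the other window, and with such genes placed at the bound that the floor allows, 2485 and 460 were at least 16-fold higher and lower. Among the genes that overlap no other gene, 50.7% were higher, 40.8% lower, 26.5% at least 16-fold higher and 4.07% at least 16-fold lower. The median log2 fold change over all tested genes was 0.19, and RLE scaling factors in place of TMM moved it by 0.101, so that changes of that size depend on the scaling. Of the genes that were lower, 2883 (58.5%) still had a mean of at least 10 CPM at 14–17 h. Of those that were higher, 1505 (26.8%) already had that level at 2–4 h.

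The genes that were lower made up between 68.7% and 70.9% of the CPM of each library at 2–4 h and between 24% and 26.6% at 14–17 h. Those that were higher made up between 11.6% and 12% at 2–4 h and between 56.4% and 60.2% at 14–17 h. The genes at least 16-fold higher took between 0.291% and 0.404% of the young libraries and between 28.1% and 29.8% of the old ones. The number of genes at 1 CPM or more ran from 8492 to 8827 at 2–4 h and from 10302 to 10374 at 14–17 h. At 1 CPM or more in every library of its own window and under 3 counts in every library of the other, 114 genes were present at 2–4 h only and 468 at 14–17 h only, of which 39 and 217 overlapped no other gene. The second count rose to 691 without replicate 1 at 2–4 h, in which late genes stood higher than in the other young libraries: summed over the cuticle protein genes it had 123 CPM, against 48.1 and 38.2 CPM in replicates 2 and 3, and Mhc stood at 52.2, 12.4 and 16.2 CPM in the 3 libraries. The log2 fold change of Mhc ran from 8.02 to 9.25 when each replicate was left out in turn.

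**Figure D1:**
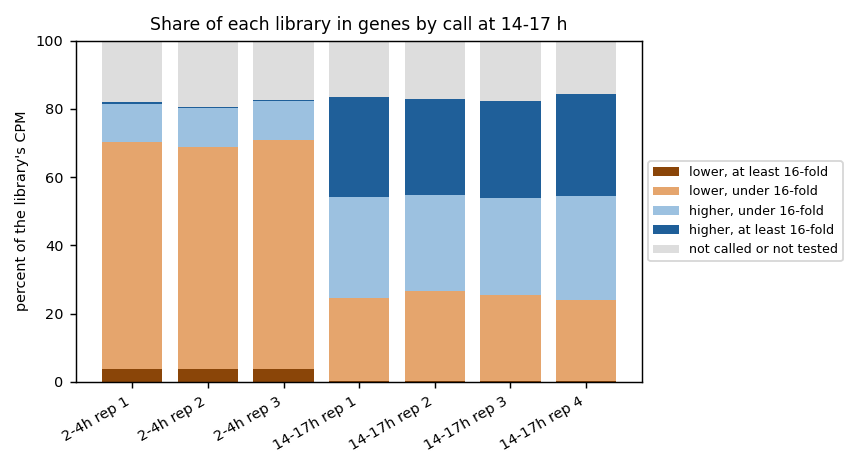
Bars give the percent of each library's CPM in genes that were lower or higher at 14–17 h (adjusted p under 0.05), split at a 16-fold change. Genes that were lower fill 68.7–70.9% of each library at 2–4 h, and those that were higher 56.4–60.2% of each at 14–17 h.

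The changed genes were read against 47 lists of genes of known function. The lists were written and grouped with earlier results of these data known. The pooled shares below are therefore in part set by that choice and are a description, not a test. Of 237 tested genes on the 12 lists of maternal, patterning, cell cycle and chromatin assembly genes, 213 (89.9%) were lower at 14–17 h and 13 were higher, beside 42.4% of all genes lower. All 12 lists held more genes that were lower than higher. Of 598 tested genes on the 23 lists of tissue and physiology genes, 474 (79.3%) were higher and 84 lower, beside 48.2% of all genes higher. Of those 23 lists, 21 held more genes that were higher than lower. The others were neuroblast and proneural genes, of which 12 of 13 were lower, and chemoreceptor genes, of which 43.6% were lower, near the 42.4% of all genes. The median log2 fold change of each of the 47 lists kept its sign when only members with under 10% of their exons inside other genes were counted. Every list count below is to be read beside the 48.2% of all genes that were higher and the 42.4% that were lower.

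**Figure D2:**
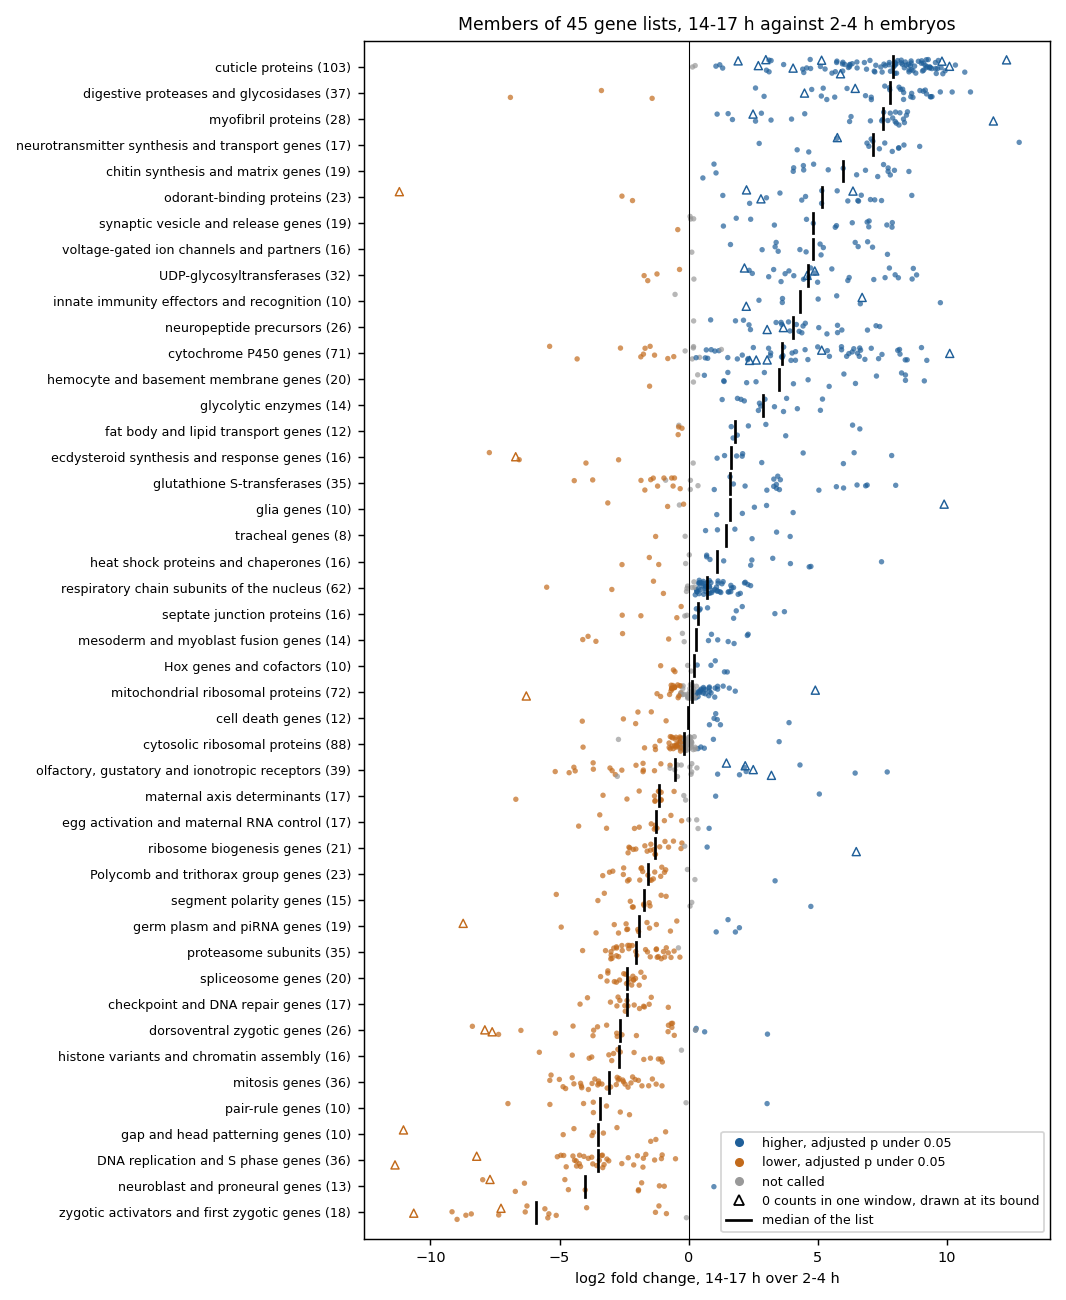
Each point is one tested member of a gene list, placed by its log2 fold change (14–17 h over 2–4 h), with the number tested in brackets and a black bar at the median, which places genes with 0 counts in one window at their bound. Triangles are those genes, and the bound is what 3 counts per library allow. Lists run from a median of −5.91 for the first zygotic genes at the bottom to 7.92 for cuticle proteins at the top.

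Maternal axis determinants, which the mother lays down to set the poles and the dorsoventral axis, were mostly lower but rarely lost. Of 17 tested, 13 were lower and 2 higher at 14–17 h, with a median log2 fold change of −1.15. bcd, the anterior determinant, stood at 53, 35.2 and 48.5 CPM at 2–4 h and 24.7, 34.2, 32.1 and 32.6 CPM at 14–17 h (log2 fold change −0.57, SE 0.16, adjusted p = 0.00589). Its lowest young library lay just above its highest old library. osk, which assembles the germ plasm at the posterior pole, stood at 13.4, 13.2 and 25.3 CPM at 2–4 h and 2.01, 5.3, 3.96 and 2.12 CPM at 14–17 h (log2 fold change −2.39, SE 0.36). gd, a protease that starts the dorsoventral signal outside the egg, stood at 1.31, 1.06 and 1.55 CPM at 2–4 h and 0.106, 0.195, 0.136 and 0.0881 CPM at 14–17 h (log2 fold change −3.32, SE 0.32). For osk and gd the windows did not overlap. Tl, the receptor of that signal, stood at 666, 593 and 685 CPM at 2–4 h and 234, 284, 255 and 280.1 CPM at 14–17 h (log2 fold change −1.30, SE 0.10), and cact, the inhibitor that holds the signal's transcription factor in the cytoplasm, fell with a log2 fold change of −1.07 (SE 0.10).

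2 genes of the same list were higher. dl (FBgn0260632, chromosome 2L, 17436830 to 17450364 of dm6), the transcription factor whose nuclear gradient patterns the dorsoventral axis, stood at 3.71, 2 and 4.33 CPM at 2–4 h and 114, 115, 112 and 124 CPM at 14–17 h (log2 fold change 5.06, SE 0.20, adjusted p = 4.1e-09). Every old library lay far above every young one, and dl overlaps no other gene. spz, the ligand of Tl, stood at 9.88, 6.49 and 10.1 CPM at 2–4 h and 17.7, 19.1, 17.6 and 19.2 CPM at 14–17 h (log2 fold change 1.04, SE 0.15). cad and snk did not pass the test, with log2 fold changes of −0.12 and −0.19, though cad passed it without replicate 2 at 2–4 h (−0.25).

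Germ plasm and piRNA genes act in the germ line, where piRNAs silence transposons. Of 19 tested, 15 were lower and 4 higher, with a median of −1.94. aub, a Piwi protein deposited in the germ plasm, stood at 78.5, 64.7 and 76.3 CPM at 2–4 h and 8.62, 13, 12.3 and 10.6 CPM at 14–17 h (log2 fold change −2.72, SE 0.14). cuff, a nuclear factor that protects piRNA precursors, stood at 7.04, 6.56 and 5.76 CPM at 2–4 h and 0.0793, 0.293, 0.305 and 0.176 CPM at 14–17 h (log2 fold change −4.94, SE 0.31). zuc, the nuclease that cuts those precursors, stood at 48, 49.3 and 50.1 CPM at 2–4 h and 3.46, 4.33, 4.27 and 4.32 CPM at 14–17 h (log2 fold change −3.59, SE 0.10). In all of these every old library was below every young one. The Tudor domain genes did not move together. tej fell with a log2 fold change of −2.42 and krimp with −2.36, while tud, itself a scaffold of the germ plasm, stood at 110.3, 101 and 107 CPM at 2–4 h and 322, 316, 282 and 297 CPM at 14–17 h (log2 fold change 1.52, SE 0.09), and tapas stood at 9.37, 6.24 and 10.6 CPM at 2–4 h and 35.1, 35.3, 34.1 and 33.8 CPM at 14–17 h (log2 fold change 1.96, SE 0.15). gcl, which is needed to form the germ cells, also rose, from 54.9 ± 5.47 CPM (SD, n = 3) to 192 ± 14.6 CPM (SD, n = 4).

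Genes of egg activation and maternal RNA control, which unlock translation in the egg and then clear its maternal RNA, had 13 of 17 lower and 1 higher, with a median of −1.29. smg, the RNA-binding protein that targets maternal RNA for decay, was lower but still present at 733, 532 and 686 CPM at 2–4 h and 321, 443, 413 and 436 CPM at 14–17 h (log2 fold change −0.69, SE 0.15). me31B, an RNA helicase that represses maternal RNA, stood at 1172, 1135 and 1205 CPM at 2–4 h and 99.3, 116, 112 and 104 CPM at 14–17 h (log2 fold change −3.44, SE 0.10, adjusted p = 6.7e-10). gnu, an activating subunit of the PAN GU kinase of egg activation, stood at 7.62, 7.43 and 11.3 CPM at 2–4 h and 0.317, 0.488, 0.508 and 0.529 CPM at 14–17 h (log2 fold change −4.26, SE 0.24). Both me31B and gnu were lower in every old library, by more than the spread between replicates. The other PAN GU subunits png and plu also fell, with log2 fold changes of −3.18 and −2.10. eIF4EHP, a cap-binding repressor of translation, was the gene of the list that rose (0.79, SE 0.09).

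The first genes that the zygote transcribes had the lowest median of the lists, −5.91. Of 18 tested, 17 were lower, 13 of them at least 16-fold, beside 4.11% of all genes, and 0 were higher. Of the 11 with under 10% of their exons inside other genes, 11 were lower, 8 of them at least 16-fold. slam, which builds the furrows that enclose the nuclei in cells, stood at 1299, 1263 and 1468 CPM at 2–4 h and 22, 36.2, 31.7 and 32.7 CPM at 14–17 h (log2 fold change −5.45, SE 0.18). term (FBgn0003683, chromosome 3L, 18592303 to 18593771), an early zygotic gene, stood at 508, 487 and 546 CPM at 2–4 h and 0.37, 1.01, 2.07 and 0.793 CPM at 14–17 h (log2 fold change −8.97, SE 0.35, adjusted p = 4.1e-09, −9.55 without replicate 3 at 14–17 h). halo, which directs lipid droplet transport as the cells form, stood at 184, 208 and 215 CPM at 2–4 h and 0.265, 1.14, 0.542 and 0.47 CPM at 14–17 h (log2 fold change −8.42, SE 0.27). In each of these 3 genes every old library lay far below every young one, and slam kept the most RNA. Tom, Brd and Ocho, which are Bearded family inhibitors of Notch signalling, fell with log2 fold changes of −6.33, −7.36 and −5.57, and sisA, an X-linked gene that counts X chromosomes for sex determination, with −6.26 (−6.89 without replicate 3 at 14–17 h).

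The list also held general activators of the zygotic genome. zld, the pioneer factor that opens early enhancers, stood at 691, 479 and 634 CPM at 2–4 h and 247, 258, 237 and 244 CPM at 14–17 h (log2 fold change −1.29, SE 0.12), and so fell while it stayed present. Clamp, with 17.3% of its exons inside other genes, fell from 301 ± 18.3 CPM (SD, n = 3) to 135 ± 5.97 CPM (SD, n = 4). Trl, which encodes GAGA factor and has 100% of its exons inside other genes, did not pass the test (−0.09, SE 0.16).

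All 10 gap and head patterning genes were lower, with a median of −3.50. hb, an anterior gap gene with a maternal and a zygotic transcript, stood at 217, 185 and 216 CPM at 2–4 h and 14.7, 17.3, 15.9 and 16 CPM at 14–17 h (log2 fold change −3.69, SE 0.10). gt, a gap gene expressed in an anterior and a posterior domain, stood at 86.7, 62.5 and 81.2 CPM at 2–4 h and 2.09, 2.99, 2.61 and 2.94 CPM at 14–17 h (log2 fold change −4.86, SE 0.16, adjusted p = 1.6e-09). tll, the terminal gap gene, stood at 50.5, 42.5 and 54 CPM at 2–4 h and 2.59, 2.08, 1.63 and 2.64 CPM at 14–17 h (log2 fold change −4.44, SE 0.16). In each of them the windows were apart by several times the spread between replicates. Of the head gap genes, ems fell with a log2 fold change of −1.47 and oc with −0.90.

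Of 10 pair-rule genes 8 were lower, with a median of −3.44. ftz, which marks alternate segments, stood at 139.5, 95.4 and 129 CPM at 2–4 h and 0.608, 1.53, 1.19 and 0.558 CPM at 14–17 h (log2 fold change −7.00, SE 0.28, adjusted p = 4.6e-09). prd, a paired box gene that acts after it, stood at 94.7, 70 and 85.9 CPM at 2–4 h and 1.69, 2.86, 2.1 and 1.47 CPM at 14–17 h (log2 fold change −5.37, SE 0.20). Both left under 3 CPM in any old library. hry, the pair-rule gene hairy, which also acts later in bristle patterning, did not pass the test, from 81.5 ± 7.19 CPM (SD, n = 3) to 75.9 ± 8.19 CPM (SD, n = 4). ftz-f1, a nuclear receptor that works with ftz in the blastoderm and with ecdysone later, was higher and stood at 211, 163 and 197 CPM at 2–4 h and 1734, 1532, 1453 and 1509.8 CPM at 14–17 h (log2 fold change 3.03, SE 0.13, with 29.4% of its exons inside other genes). In the narrow collections it stood at 3224 and 2781 CPM at 14–14.5 h and, just after the old window, at 328 and 316 CPM at 17–17.5 h.

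Dorsoventral genes of the zygote had 21 of 26 lower and 4 higher, with a median of −2.68. sna, the repressor that sets the ventral mesoderm, stood at 137, 116 and 144 CPM at 2–4 h and 19.5, 17.4, 16.7 and 24.1 CPM at 14–17 h (log2 fold change −2.77, SE 0.14). zen, the homeobox gene of the dorsal amnioserosa, stood at 48.6, 47.3 and 53.3 CPM at 2–4 h and 0.344, 0.748, 0.542 and 0.587 CPM at 14–17 h (log2 fold change −6.50, SE 0.17). tld, the protease that frees the BMP ligand, stood at 124, 124 and 123 CPM at 2–4 h and 3.12, 4.68, 3.32 and 2.73 CPM at 14–17 h (log2 fold change −5.16, SE 0.16). In these 3 the old libraries lay below every young one. dpp, the main BMP ligand, fell with a log2 fold change of −0.56, the FGF ligand ths fell with −0.78, and the FGF receptor htl with −0.63, while pyr, the other FGF ligand of htl, rose (0.62, SE 0.10). vnd, with 77.9% of its exons inside other genes, rose as well. rho and fog, with 100% and 24.4%, passed the test with log2 fold changes of 0.26 and 0.29, but rho lost the call without replicate 1 at 14–17 h (0.17) or replicate 1 at 2–4 h (0.25), and fog without replicate 1 or 4 at 14–17 h (0.22 each) or replicate 2 or 3 at 2–4 h (0.22 and 0.27).

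Segment polarity genes, which fix the borders of each segment through Wnt and Hedgehog signals, had 12 of 15 lower, with a median of −1.73. ptc, the Hedgehog receptor, stood at 475, 397 and 442 CPM at 2–4 h and 39.5, 43.3, 33.5 and 36.8 CPM at 14–17 h (log2 fold change −3.52, SE 0.11). gsb, a paired box target of these signals, stood at 64.1, 48.3 and 58.9 CPM at 2–4 h and 1.72, 2.02, 1.22 and 1.56 CPM at 14–17 h (log2 fold change −5.13, SE 0.16, adjusted p = 1.3e-09). arm, the fly beta-catenin, stood at 2054, 1661 and 2019 CPM at 2–4 h and 589, 584, 535 and 595 CPM at 14–17 h (log2 fold change −1.73, SE 0.11). wg, hh and en, which carry or respond to the border signals, fell with log2 fold changes of −1.75, −2.26 and −2.18. H15, a T-box gene of the ventral pattern and the heart, was the one gene of the list that rose (4.73, SE 0.21), and inv and fz2 did not pass the test.

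Hox genes give segments their identity and stay on afterwards. Of 10 Hox genes and cofactors 5 (50%) were higher, 3 (30%) lower and 2 not called, beside 48.2% and 42.4% of all genes, with a median of 0.21, near the 0.19 of all genes. lab and pb, 2 of the Hox genes of the head, stood at 9.03, 6.99 and 9.21 CPM at 2–4 h and 24.6, 20.4, 21.7 and 21.8 CPM at 14–17 h for lab (log2 fold change 1.38, SE 0.12) and 4.48, 3.31 and 4.97 CPM at 2–4 h and 13.9, 11.5, 10.9 and 12.2 CPM at 14–17 h for pb (log2 fold change 1.49, SE 0.16). abd-A rose with a log2 fold change of 0.86 and Scr with 1.03, while Dfd fell with −0.53. Antp and Ubx did not pass the test, at −0.04 and 0.10. The cofactors exd and hth fell, with −1.09 and −0.59.

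**Figure D3:**
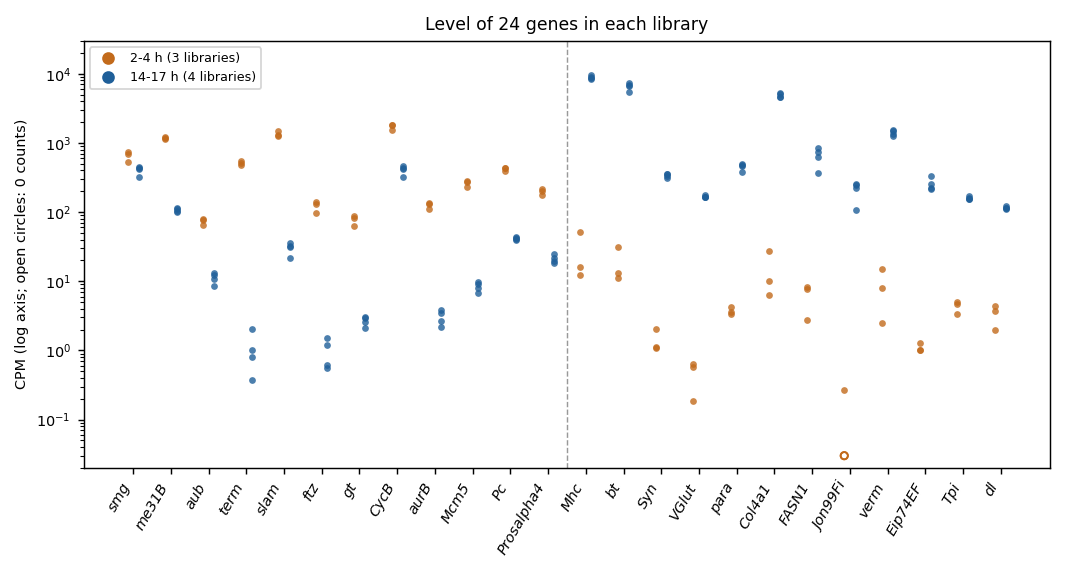
Each point is the CPM of one library on a log axis, for 12 genes that were lower and 12 that were higher at 14–17 h, left and right of the dashed line. In each of the 24 genes the 3 libraries at 2–4 h and the 4 at 14–17 h do not overlap, as for aurB, dl and Mhc. The genes were picked from those named in the text, and over all tested genes 48.1% were likewise apart and higher and 42% apart and lower.

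The listed genes that divide the cell and copy its DNA were all lower. Of 36 tested mitosis genes, 36 were lower and 0 higher, with a median log2 fold change of −3.09 and a range from −5.38 to −1.03. Of 36 tested genes of DNA replication and S phase, 36 were lower, with a median of −3.51, and of 17 checkpoint and repair genes, 17 were lower, with a median of −2.39. At least 16-fold lower were 10, 14 and 1 of them, beside 4.11% of all genes. Over members with under 10% of their exons inside other genes these were 7 of 29, 10 of 30 and 0 of 14. Summed over its list, mitosis RNA stood between 9165 and 10849 CPM in the young libraries and between 1236 and 1667 CPM in the old ones, and replication RNA between 4950 and 5891 CPM and between 666 and 763 CPM.

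Falls differed in size between mitosis genes. aurB, the kinase of the chromosomal passenger complex, stood at 135, 111 and 133 CPM at 2–4 h and 2.17, 3.84, 3.52 and 2.7 CPM at 14–17 h (log2 fold change −5.38, SE 0.18, adjusted p = 1.7e-09). feo, which bundles microtubules of the central spindle, stood at 173, 132 and 172 CPM at 2–4 h and 3.97, 3.84, 4.27 and 3.76 CPM at 14–17 h (log2 fold change −5.33, SE 0.13). Ndc80, of the kinetochore, stood at 51.9, 43.6 and 50.9 CPM at 2–4 h and 1.4, 1.89, 1.22 and 1.56 CPM at 14–17 h (log2 fold change −5.01, SE 0.14). All 3 fell to below 5 CPM in every old library. CycB, a mitotic cyclin, kept more and stood at 1833, 1540.2 and 1815 CPM at 2–4 h and 319, 459.9, 440.5 and 424 CPM at 14–17 h (log2 fold change −2.07, SE 0.14). stg, the Cdc25 phosphatase that triggers mitosis in the zygotic cycles, fell with a log2 fold change of −2.35, and twe, its maternal and germ line relative, with −1.26. The replicates were close enough that every gene of the mitosis list fell by more than their spread.

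Falls within the replication and S phase list ended at −0.51, that of Cdk4. Mcm5, of the replicative helicase, stood at 277, 231 and 271 CPM at 2–4 h and 8.07, 9.69, 9.15 and 6.78 CPM at 14–17 h (log2 fold change −4.95, SE 0.14, adjusted p = 6.7e-10). PCNA, the sliding clamp, stood at 345, 301 and 337 CPM at 2–4 h and 14.4, 16.8, 14.2 and 13.3 CPM at 14–17 h (log2 fold change −4.48, SE 0.11). CycE, the cyclin that starts S phase, stood at 427, 373 and 401 CPM at 2–4 h and 19.2, 21.3, 17.7 and 20.8 CPM at 14–17 h (log2 fold change −4.34, SE 0.10). In all of these every old library lay far below every young one. Cdk4 and CycD, the kinase and cyclin that link growth to the cycle, fell with log2 fold changes of −0.51 and −1.06. Rbf and E2f1, the repressor and activator of the G1 to S step, fell with −1.32 and −1.66. Among checkpoint genes mei-41, the fly ATR kinase that slows the last blastoderm cycles, stood at 40.1, 30 and 40.5 CPM at 2–4 h and 2.56, 2.6, 2.58 and 2.03 CPM at 14–17 h (log2 fold change −3.92, SE 0.15), while trbl, which brakes stg in the mesoderm, fell with −0.79.

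Chromatin genes were also lower as a group. Of 16 histone variants and chromatin assembly factors 15 were lower and 0 higher, with a median of −2.70. Caf1-105, which loads histones behind the fork, stood at 173, 156 and 175 CPM at 2–4 h and 2.33, 3.22, 3.19 and 3.52 CPM at 14–17 h (log2 fold change −5.78, SE 0.14, adjusted p = 4.7e-10). Slbp, which binds the stem-loop of histone mRNA, stood at 218, 184 and 208 CPM at 2–4 h and 8.7, 9.56, 9.05 and 8.43 CPM at 14–17 h (log2 fold change −4.51, SE 0.10). BigH1, the embryonic linker histone, stood at 51.6, 40 and 53.9 CPM at 2–4 h and 1.85, 4.13, 4.78 and 2.85 CPM at 14–17 h (log2 fold change −3.85, SE 0.26). All 3 were lower in every old library. The replacement histone genes His3.3A (16.8% of exons inside other genes), His3.3B and His2Av fell with log2 fold changes of −1.74, −1.08 and −2.98.

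Polycomb and trithorax group genes keep Hox genes off or on through cell division. Of 23 tested, 20 were lower and 1 higher, beside 42.4% and 48.2% of all genes, with a median of −1.58. Pc, which reads the repressive histone mark, stood at 429, 392 and 431 CPM at 2–4 h and 41.1, 41.8, 39.5 and 43.9 CPM at 14–17 h (log2 fold change −3.33, SE 0.08, adjusted p = 5.0e-10). mor, of the Brahma remodelling complex, stood at 946, 758 and 915 CPM at 2–4 h and 103, 121, 116 and 115 CPM at 14–17 h (log2 fold change −2.94, SE 0.11). Su(z)2, a paralog of Psc, moved the other way and stood at 7.38, 7.62 and 7.69 CPM at 2–4 h and 83.3, 77, 69.1 and 77.5 CPM at 14–17 h (log2 fold change 3.34, SE 0.10, adjusted p = 1.0e-09), while Psc fell with −1.58. trx did not pass the test (−0.05, SE 0.10).

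All 20 tested spliceosome genes were lower, beside 42.4% of all genes, with a median of −2.38 and a range from −3.41 to −1.72. SmB, of the core of the small nuclear ribonucleoproteins, stood at 138, 112 and 136 CPM at 2–4 h and 14, 15.1, 17 and 11.5 CPM at 14–17 h (log2 fold change −3.16, SE 0.14), and B52, a splicing regulator, at 1148, 865 and 1099 CPM at 2–4 h and 194, 194, 199 and 193 CPM at 14–17 h (log2 fold change −2.41, SE 0.11). Ribosome biogenesis genes had 18 of 21 lower, beside 42.4% of all genes, with a median of −1.31. Nopp140, a nucleolar chaperone, fell from 961 ± 114 CPM (SD, n = 3) to 189 ± 22 CPM (SD, n = 4). The genes of the list that rose were eIF6, whose exons lie wholly inside ytr, and pes, with a log2 fold change of 0.71, which in the fly is the scavenger receptor peste and not a ribosome factor. Proteasome genes had 34 of 35 tested lower and 0 higher, beside 42.4% and 48.2% of all genes, with a median of −2.05. Prosalpha4, of the core particle, stood at 198, 175 and 215 CPM at 2–4 h and 19.9, 21.9, 24.5 and 18.1 CPM at 14–17 h (log2 fold change −3.22, SE 0.12, adjusted p = 3.2e-09). Of the regulatory particle, Rpn6 fell with a log2 fold change of −2.01, Rpt5 with −0.87 and Rpn13 with −0.34.

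Of 88 tested cytosolic ribosomal protein genes 32 (36.4%) were lower and 5 higher, beside 42.4% and 48.2% of all genes, with a median of −0.19. The number that were lower rose to 51 without replicate 2 at 2–4 h and to 53 without replicate 3 at 14–17 h, and it was 22 without replicate 3 at 2–4 h. Some duplicated genes stood apart. RpS5b stood at 308, 235 and 318 CPM at 2–4 h and 16.5, 17.9, 19.3 and 13.7 CPM at 14–17 h (log2 fold change −4.09, SE 0.15, adjusted p = 2.7e-09), while its copy RpS5a stood at 715, 559 and 707 CPM at 2–4 h and 1271, 1214, 1344 and 1291 CPM at 14–17 h (log2 fold change 0.95, SE 0.11). The pair thus moved in opposite directions, with no overlap of windows for either gene. RpS15Ab fell with a log2 fold change of −1.71. Mitochondrial ribosomal protein genes had 27 of 72 (37.5%) higher and 19 (26.4%) lower, both below the 48.2% and 42.4% of all genes. Their median was 0.11, close to the 0.19 of all genes.

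Genes of energy metabolism were mostly higher. Nuclear genes of the respiratory chain had 52 of 62 tested higher and 4 lower, beside 48.2% and 42.4% of all genes. Their median was 0.71. ATPsynbeta, the catalytic subunit of ATP synthase, stood at 663, 641 and 681 CPM at 2–4 h and 2082, 2091, 2207 and 1814 CPM at 14–17 h (log2 fold change 1.63, SE 0.11, with 10.8% of its exons inside other genes). UQCR-C2, of complex III, stood at 60.5, 40 and 58.2 CPM at 2–4 h and 291, 279.8, 318 and 229 CPM at 14–17 h (log2 fold change 2.40, SE 0.17, adjusted p = 3.1e-07). 3 of the 4 genes that were lower, COX7AL, ATPsynbetaL and COX4L, are paralogs that had a mean under 1 CPM in both windows. All 14 glycolytic genes were higher, with a median of 2.87. Tpi, triose phosphate isomerase, stood at 4.65, 3.37 and 4.94 CPM at 2–4 h and 156, 155, 169 and 159 CPM at 14–17 h (log2 fold change 5.18, SE 0.13, adjusted p = 5.5e-10). Gapdh2 stood at 18.4, 11.7 and 24.8 CPM at 2–4 h and 622, 612, 656 and 644 CPM at 14–17 h (log2 fold change 5.10, SE 0.24), and Ldh, which makes lactate, rose from 12.7 ± 1.55 CPM (SD, n = 3) to 235 ± 10.3 CPM (SD, n = 4). Summed, glycolytic RNA stood between 502 and 654 CPM at 2–4 h and between 4637 and 5079.8 CPM at 14–17 h.

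Genes of the contractile apparatus of muscle were all higher. All 28 tested myofibril genes were higher, 21 of them at least 16-fold, beside 22.8% of all genes, with a median log2 fold change of 7.53. Their sum stood between 1265 and 1807 CPM at 2–4 h and between 54702 and 62439 CPM at 14–17 h. Mhc (FBgn0264695, chromosome 2L, 16766566 to 16788766), the myosin heavy chain of muscle, stood at 9540.2, 8663, 8844 and 8391 CPM at 14–17 h (log2 fold change 8.35, SE 0.58, adjusted p = 2.8e-07). bt, a projectin of the titin family, stood at 31.5, 13 and 11.2 CPM at 2–4 h and 7400.4, 6895, 5504 and 6664 CPM at 14–17 h (log2 fold change 8.47, SE 0.45, 9.08 without replicate 1 at 2–4 h). Act57B, a larval muscle actin, stood at 148, 52.6 and 111 CPM at 2–4 h and 13810.4, 11476, 13481 and 15898 CPM at 14–17 h (log2 fold change 7.03, SE 0.39). In each gene the highest young library was far below the lowest old one. The tropomyosin gene Tm1 rose with a log2 fold change of 1.53, SE 0.10, and the tropomodulin gene tmod with 1.10, SE 0.10, the smallest rise of the list.

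Of 14 tested mesoderm and myoblast fusion genes 7 (50%) were higher and 5 (35.7%) lower, beside 48.2% and 42.4% of all genes. Their median was 0.29, or 0.76 over members with clear exons, against 0.19 for all genes. tin, the heart and visceral mesoderm factor, stood at 39.5, 32.5 and 38.8 CPM at 2–4 h and 1.98, 2.37, 1.86 and 2.38 CPM at 14–17 h (log2 fold change −4.10, SE 0.13, adjusted p = 1.2e-09). Him, which holds muscle progenitors back from differentiation, stood at 10.7, 10.4 and 11.2 CPM at 2–4 h and 0.846, 0.91, 0.61 and 0.499 CPM at 14–17 h (log2 fold change −3.90, SE 0.20). Both were lower in every old library. Mef2, the muscle differentiation factor, rose with a log2 fold change of 0.76, and kirre, a fusion receptor of founder myoblasts, stood at 13.6, 10.4 and 12 CPM at 2–4 h and 56.6, 54.7, 58.1 and 63.1 CPM at 14–17 h (log2 fold change 2.27, SE 0.11), while lmd, a factor of fusion-competent myoblasts, fell with −3.59.

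In the nervous system the genes of founder cells were lower. Of 13 neuroblast and proneural genes 12 were lower and 1 higher, with a median of −4.01, or −1.88 over the 8 with under 10% of exons inside other genes, of which 7 were lower. ato, a proneural gene of chordotonal organs, stood at 7.04, 6.18 and 6.39 CPM at 2–4 h and 0.0793, 0.163, 0 and 0.0587 CPM at 14–17 h (log2 fold change −6.36, SE 0.39, −6.94 without replicate 2 at 14–17 h). amos, a related proneural gene, stood at 7.42, 7.99 and 7.4 CPM at 2–4 h and 0.0529, 0.065, 0.102 and 0.0587 CPM at 14–17 h (log2 fold change −6.71, SE 0.23, adjusted p = 2.0e-09). SoxN, an early neuroectoderm factor, stood at 312, 227 and 283 CPM at 2–4 h and 78.9, 73.3, 64.7 and 67.9 CPM at 14–17 h (log2 fold change −1.94, SE 0.12). ato and amos had little or no signal in old libraries, whereas SoxN and pros (log2 fold change −1.14) kept levels well above the floor. insc, which orients neuroblast divisions, was higher (0.97, SE 0.11).

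Genes of working neurons were higher. Of 19 synaptic vesicle and release genes 15 were higher and 1 lower, with a median of 4.82, or 5.70 over members with clear exons. Syn, synapsin, stood at 2.02, 1.12 and 1.08 CPM at 2–4 h and 350.0, 328, 314 and 359 CPM at 14–17 h (log2 fold change 7.87, SE 0.21, adjusted p = 5.6e-10). Rim, an active zone organiser, stood at 1.72, 0.312 and 0.854 CPM at 2–4 h and 269.5, 250.2, 222 and 255 CPM at 14–17 h (log2 fold change 7.88, SE 0.30, 8.54 without replicate 1 at 2–4 h). Syt1, the calcium sensor of release, stood at 2.66, 1.5 and 1.55 CPM at 2–4 h and 413, 408, 375 and 395 CPM at 14–17 h (log2 fold change 7.67, SE 0.20). Over these 3 genes the young libraries ran from 0.312 to 2.66 CPM. Snap25 (0.08, SE 0.11) and Syx1A (0.19, SE 0.09, with 100% of its exons inside other genes), of the vesicle fusion complex, did not pass the test, though Syx1A passed it without replicate 3 at 14–17 h (0.17), and the chaperone Csp fell (−0.42, SE 0.08).

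All 17 genes of transmitter synthesis and transport were higher, 16 of them at least 16-fold, with a median of 7.38. VGlut, the vesicular transporter of glutamate, which is the transmitter of fly motor neurons, stood at 0.64, 0.187 and 0.57 CPM at 2–4 h and 175, 164, 164 and 162 CPM at 14–17 h (log2 fold change 8.33, SE 0.19, adjusted p = 4.5e-10). Ddc, which makes dopamine and serotonin and also serves cuticle hardening, stood at 0.91, 0.624 and 0.57 CPM at 2–4 h and 136, 118, 134 and 162 CPM at 14–17 h (log2 fold change 7.59, SE 0.20). Of 16 channel genes 15 were higher, with a median of 4.81. para, the sodium channel of the action potential, stood at 4.21, 3.56 and 3.39 CPM at 2–4 h and 472, 456, 386 and 502 CPM at 14–17 h (log2 fold change 6.93, SE 0.16, adjusted p = 4.5e-10), and slo, a calcium-activated potassium channel, stood at 2.53, 1.19 and 1.2 CPM at 2–4 h and 373, 349, 309 and 372 CPM at 14–17 h (log2 fold change 7.69, SE 0.25). In para and slo every old library was far above the highest young one. NaCP60E did not pass the test (0.12, SE 0.11), except without replicate 1 at 2–4 h (0.24). Of 26 tested neuropeptide precursor genes 25 were higher and 0 lower, with a median of 4.33, but their sum was small, between 26.6 and 29.8 CPM at 2–4 h and between 257 and 283 CPM at 14–17 h. sNPF, short neuropeptide F, stood at 0.135, 0 and 0.0633 CPM at 2–4 h and 11.4, 13.7, 13.7 and 15.9 CPM at 14–17 h (log2 fold change 7.39, SE 0.33, 8.21 without replicate 1 at 2–4 h), and Crz did not pass the test.

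Glia genes had 6 of 10 (60%) higher and 3 (30%) lower, beside 48.2% and 42.4% of all genes, with a median of 1.58. gcm, the switch that makes glia, stood at 29.6, 23.3 and 27.9 CPM at 2–4 h and 2.86, 3.19, 3.22 and 3.05 CPM at 14–17 h (log2 fold change −3.13, SE 0.12, adjusted p = 3.5e-09). repo, the factor that glia keep, stood at 4.45, 3.18 and 4.9 CPM at 2–4 h and 27.5, 25.2, 23.2 and 23.4 CPM at 14–17 h (log2 fold change 2.54, SE 0.15). Both windows were apart in each gene, in opposite directions. wrapper, a surface protein of midline glia, also rose (3.01, SE 0.27).

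**Figure D4:**
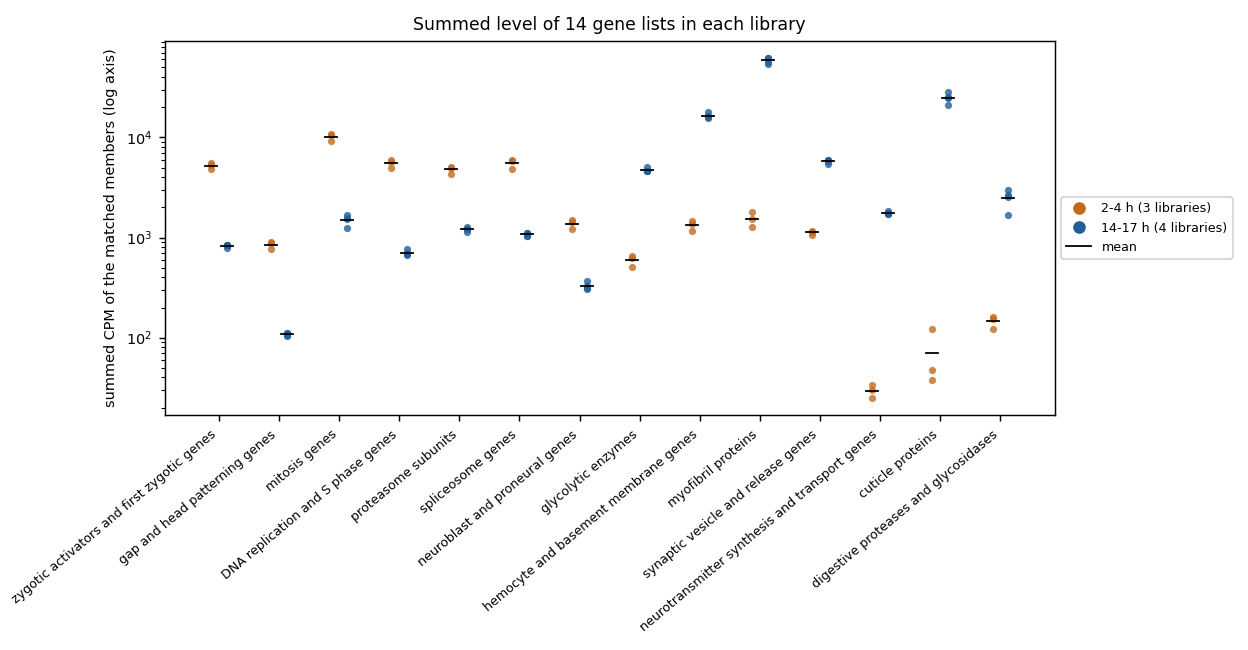
Points give the CPM of one library summed over all matched members of a list, on a log axis, with the mean of each window as a black line. Sums fall at 14–17 h for the first 7 lists, from first zygotic to neuroblast genes, and rise for the other 7, with no overlap between windows in any of the 14 lists.

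The epidermis and its matrix were higher. Of 103 tested cuticle protein genes 101 were higher, 93 of them at least 16-fold, with a median of 7.99 (8.70 without replicate 1 at 2–4 h), and their sum ran from 38.2 to 123 CPM at 2–4 h and from 20841 to 28541 CPM at 14–17 h. TwdlM, a Tweedle cuticle protein, stood at 10.7, 6.31 and 0 CPM at 2–4 h and 3508, 2865, 3655 and 3849.6 CPM at 14–17 h (log2 fold change 9.27, SE 1.05, 10.37 without replicate 1 at 2–4 h and 8.64 without replicate 3 at 2–4 h). All 19 chitin synthesis and matrix genes were higher, with a median of 5.98. verm, a chitin deacetylase of tracheal and epidermal matrix, stood at 15.2, 2.5 and 7.88 CPM at 2–4 h and 1514, 1244, 1359 and 1499 CPM at 14–17 h (log2 fold change 7.32, SE 0.52, adjusted p = 3.2e-07, 7.97 without replicate 1 at 2–4 h). kkv, the chitin synthase, stood at 10.3, 8.68 and 9.49 CPM at 2–4 h and 171, 169.6, 146 and 145 CPM at 14–17 h (log2 fold change 4.05, SE 0.12). Cpr60D and Cpr72Ec were the cuticle protein genes that did not pass the test.

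Among tracheal genes 6 of 8 (75%) were higher and 1 (12.5%) lower, beside 48.2% and 42.4% of all genes. btl, the FGF receptor that guides tracheal branching, fell (−1.28, SE 0.10), while dpy, a giant protein of apical matrix, stood at 55.3, 42 and 54 CPM at 2–4 h and 849.5, 782, 629.9 and 812 CPM at 14–17 h (log2 fold change 3.93, SE 0.16). Septate junction genes, which seal epithelia, had 10 of 16 (62.5%) higher and 4 (25%) lower, beside 48.2% and 42.4% of all genes. Their median was 0.35. cora, a scaffold of the junction, stood at 73.4, 53.8 and 73.8 CPM at 2–4 h and 892, 819, 813 and 974 CPM at 14–17 h (log2 fold change 3.70, SE 0.15, adjusted p = 5.4e-09). Atpalpha, the sodium pump, stood at 266, 211 and 256 CPM at 2–4 h and 2572, 2367, 2343 and 2592 CPM at 14–17 h (log2 fold change 3.34, SE 0.13). Lac, an adhesion protein of the same junction, moved the other way and stood at 965, 852 and 946 CPM at 2–4 h and 163, 149, 145 and 161 CPM at 14–17 h (log2 fold change −2.57, SE 0.09). The 3 genes each had windows that did not overlap, so members of 1 junction rose and fell.

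In the gut, 34 of 37 tested digestive proteases and glycosidases were higher and 3 lower, with a median of 8.2, or 7.78 with genes at 0 in one window placed at their bound. Jon99Fi, a Jonah serine protease, stood at 0.27, 0 and 0 CPM at 2–4 h and 219.5, 243, 254 and 109 CPM at 14–17 h (log2 fold change 10.91, SE 0.60, adjusted p = 4.3e-08, 15.59 without replicate 1 at 2–4 h and 10.18 without replicate 3 at 2–4 h). Jon99Cii stood at 1.62, 0 and 1.23 CPM at 2–4 h and 374, 385, 445 and 192 CPM at 14–17 h (log2 fold change 8.32, SE 0.54). Where the library left out was the only young one with a count, as here for Jon99Fi and below for NimC1, Ir76b and PGRP-LA, the refitted value depends on the prior count of the fit and is no bound. In both Jonah genes, replicate 4 was the lowest of the old libraries, and it was still far above every young one. The maltase gene Mal-A5 fell, against most of the list, and stood at 118, 90.4 and 111 CPM at 2–4 h and 9.18, 10.4, 9.79 and 11.5 CPM at 14–17 h (log2 fold change −3.38, SE 0.12). Another maltase gene, Mal-B2, with at least 10% of its exons inside other genes, fell further. Its log2 fold change ran from −7.47 to −6.49 when each replicate was left out in turn.

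Fat body and lipid transport genes had 8 of 12 tested (66.7%) higher and 3 (25%) lower, beside 48.2% and 42.4% of all genes. FASN1, fatty acid synthase, stood at 8.26, 2.75 and 7.78 CPM at 2–4 h and 619.7, 745, 836 and 366 CPM at 14–17 h (log2 fold change 6.62, SE 0.44, adjusted p = 1.9e-07), again lowest in replicate 4 among the old libraries. apolpp, the main lipoprotein of the blood, stood at 299.9, 289 and 309.8 CPM at 2–4 h and 2552, 2551, 2197 and 2200.2 CPM at 14–17 h (log2 fold change 2.99, SE 0.11). Hemocyte and basement membrane genes had 17 of 20 higher and 1 lower, with a median of 3.49, or 4.62 over members with clear exons. Col4a1, a collagen IV chain, stood at 27, 6.31 and 9.94 CPM at 2–4 h and 5224, 4588, 5134 and 4667 CPM at 14–17 h (log2 fold change 8.39, SE 0.54, adjusted p = 1.5e-07, 9.19 without replicate 1 at 2–4 h). NimC1, a phagocytosis receptor of plasmatocytes, stood at 0, 0 and 0.0633 CPM at 2–4 h and 17.1, 15.4, 16.8 and 17.4 CPM at 14–17 h (log2 fold change 9.12, SE 0.33, 8.49 without replicate 1 at 2–4 h and 11.95 without replicate 3 at 2–4 h). srp, the GATA factor that founds blood and fat body, fell (−1.52, SE 0.10, with 17.3% of its exons inside other genes), and lz, the crystal cell factor, did not pass the test (0.35, SE 0.23).

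Detoxification gene families were examined next. Cytochrome P450 genes had 55 of 71 tested higher and 10 lower, beside 48.2% and 42.4% of all genes, with a median of 3.68. Cyp4g15 stood at 0.0674, 0 and 0.0949 CPM at 2–4 h and 37.2, 32.9, 33 and 38.4 CPM at 14–17 h (log2 fold change 9.01, SE 0.25, adjusted p = 6.7e-10). Glutathione S-transferases had 19 of 35 (54.3%) higher and 12 (34.3%) lower, beside 48.2% and 42.4% of all genes, with a median of 1.60. GstE2 stood at 0.101, 0.0624 and 0.0316 CPM at 2–4 h and 19.7, 18.2, 17.8 and 15.4 CPM at 14–17 h (log2 fold change 8.01, SE 0.26). GstO1 went the other way and stood at 12.5, 8.74 and 12.8 CPM at 2–4 h and 0.397, 0.553, 0.61 and 0.558 CPM at 14–17 h (log2 fold change −4.43, SE 0.21). GstS1 did not pass the test (0.07, SE 0.11), and its direction turned without replicate 2 at 2–4 h. UDP-glycosyltransferases had 27 of 32 higher and 4 lower, with a median of 4.80.

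Odorant-binding protein genes had 20 of 23 tested higher and 3 lower, beside 48.2% and 42.4% of all genes, with a median of 5.75. Obp83g stood at 0.438, 0.312 and 0.0316 CPM at 2–4 h and 117, 94, 95.5 and 92.9 CPM at 14–17 h (log2 fold change 8.64, SE 0.32, 9.55 without replicate 1 at 2–4 h and 7.97 without replicate 3 at 2–4 h). Obp99a was lower and stood at 128, 104 and 144 CPM at 2–4 h and 20.8, 18.6, 25 and 19.2 CPM at 14–17 h (log2 fold change −2.58, SE 0.14, adjusted p = 3.6e-08). Chemoreceptor genes were mostly silent: 146 of 185 matched genes were too low to test. Of the 39 tested, 17 (43.6%) were lower and 11 (28.2%) higher, beside 42.4% and 48.2% of all genes, and 10 were lower with a minimum of 1 CPM in 3 libraries. Ir76b, a co-receptor of ionotropic receptors, stood at 0, 0 and 0.0633 CPM at 2–4 h and 6.11, 5.63, 5.62 and 7.22 CPM at 14–17 h (log2 fold change 7.68, SE 0.44, 7.06 without replicate 1 at 2–4 h and 10.51 without replicate 3 at 2–4 h). Ir68a stood at 17.2, 15.2 and 16.6 CPM at 2–4 h and 0.635, 0.91, 0.813 and 0.646 CPM at 14–17 h (log2 fold change −4.45, SE 0.16, adjusted p = 2.4e-09). The 2 receptors had windows that did not overlap, in opposite directions.

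Of 16 genes of ecdysteroid synthesis and response 10 (62.5%) were higher and 5 (31.25%) lower, beside 48.2% and 42.4% of all genes. Synthesis genes moved in both directions. Among members with under 10% of their exons inside other genes 2 were lower, phtm and sad, and both are synthesis genes. spo, an early enzyme of ecdysteroid synthesis, stood at 165, 171 and 163 CPM at 2–4 h and 0.45, 1.2, 0.949 and 0.617 CPM at 14–17 h (log2 fold change −7.72, SE 0.21, adjusted p = 6.5e-10, with 12.4% of its exons inside other genes). phtm, a later enzyme, stood at 50.5, 43.6 and 48.9 CPM at 2–4 h and 7.38, 7.28, 7.66 and 6.75 CPM at 14–17 h (log2 fold change −2.71, SE 0.09). sad, which acts after it, stood at 18.2, 13.4 and 17.8 CPM at 2–4 h and 1.06, 1.4, 0.881 and 0.852 CPM at 14–17 h (log2 fold change −3.98, SE 0.20). All 3 were lower in every old library, while spok, the paralog of spo used in the larval gland, rose with a log2 fold change of 4.43 and shd, the last enzyme, with 1.10. Eip74EF, an ecdysone-induced factor, stood at 1.28, 0.999 and 1.01 CPM at 2–4 h and 252, 218, 225 and 338 CPM at 14–17 h (log2 fold change 7.86, SE 0.24, adjusted p = 9.9e-10). Eip78C stood at 0.843, 0.375 and 0.664 CPM at 2–4 h and 63.6, 55.6, 52.2 and 55.4 CPM at 14–17 h (log2 fold change 6.40, SE 0.18). EcR, the receptor, did not pass the test (0.17, SE 0.11), but passed it with RLE factors (0.27). usp, the partner of EcR in the receptor, whose exons lie wholly inside other genes, stood at 8.49, 7.68 and 12.4 CPM at 2–4 h and at 0 in all 4 libraries at 14–17 h.

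Among innate immunity genes 10 of 33 could be tested, of which 9 were higher and 0 lower, with a median of 5.37, or 4.32 both with genes at 0 placed at their bound and over members with clear exons. PGRP-LA, a peptidoglycan recognition protein, stood at 0, 0 and 0.0316 CPM at 2–4 h and 15.2, 14.6, 13.5 and 15.2 CPM at 14–17 h (log2 fold change 9.74, SE 0.32, adjusted p = 1.5e-09, 11.76 without replicate 3 at 2–4 h). Heat shock and chaperone genes had 11 of 16 (68.75%) higher and 3 (18.75%) lower, beside 48.2% and 42.4% of all genes. Of the 11, Hsp68 stood at 21.9, 27.8, 54.3 and 16.2 CPM at 14–17 h, and at 6.58 to 13.8 CPM in the narrow collections. Hsp70Ab stood at 137.5, 77.6, 118.8 and 96.6 CPM at 14–17 h and at 17.9 to 31.5 CPM in the narrow collections. Both were thus higher at 14–17 h than in either narrow collection, and the cause was not tested. Hsc70-4, the cytosolic Hsp70 that cells make without heat, stood at 5596, 4287 and 5479 CPM at 2–4 h and 1836, 1757, 1978 and 1543 CPM at 14–17 h (log2 fold change −1.53, SE 0.13). Hsp60A, a mitochondrial chaperonin, rose from 37.7 ± 10.1 CPM (SD, n = 3) to 362 ± 32.2 CPM (SD, n = 4) and Hsc70-5, the mitochondrial Hsp70, with a log2 fold change of 2.40. Hsp27 fell (−2.58, SE 0.27), and Hsp23 and Hsp26 did not pass the test.

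Of 12 cell death genes 6 (50%) were higher and 6 (50%) lower, near the 48.2% and 42.4% of all genes, and their median of −0.04 turned to 0.06 with RLE scaling factors. hid, a trigger of apoptosis, stood at 64.9, 64.6 and 67 CPM at 2–4 h and 17.7, 16.4, 14.7 and 14.2 CPM at 14–17 h (log2 fold change −2.05, SE 0.09). Drice, an effector caspase, stood at 169, 151 and 171 CPM at 2–4 h and 25.7, 28.6, 28.7 and 30.5 CPM at 14–17 h (log2 fold change −2.53, SE 0.09, adjusted p = 2.2e-09). Buffy, a Bcl-2 family gene, stood at 1.48, 1.06 and 1.11 CPM at 2–4 h and 18.1, 16.5, 17 and 21.4 CPM at 14–17 h (log2 fold change 3.88, SE 0.17). The trigger and the caspase were lower and Buffy was higher in every old library. rpr fell with a log2 fold change of −1.45 and skl rose with 0.98, from young means of 19.8 and 8 CPM. In the narrow collections rpr stood at 34.5 and 32.4 CPM at 14–14.5 h and 5.95 and 6.81 CPM at 17–17.5 h. There skl stood at 34.9 and 34.65 CPM and then at 4.39 and 4.82 CPM. Both were thus above their young mean at 14–14.5 h and below it at 17–17.5 h, with no test.

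As a check of the labels, genes of the adult ovary and testis were low. Of 20 egg shell and yolk genes 4 could be tested, and the list summed to between 7.24 and 12.2 CPM at 2–4 h and between 2.44 and 3.19 CPM at 14–17 h. Of 13 testis genes 1 could be tested, and the sum ran from 1.01 to 1.63 CPM over all 7 libraries. Some genes that mark the blastoderm (slam, ftz, zen) were far higher at 2–4 h, and some that mark muscle, neurons, glia and hemocytes (Mhc, Syt1, repo, Hml) were higher at 14–17 h. These are a few genes picked from larger sets. Not all tissue genes went that way: the tracheal gene btl and the glia gene gcm were lower at 14–17 h.

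Beyond the lists, the largest changes among genes with a symbol and at least 50 CPM in one window were ranked. On the side that was lower stood alpha4GT2 (FBgn0039378, chromosome 3R, 25832230 to 25842878), a galactosyltransferase gene, with 928, 1284 and 902 CPM at 2–4 h and 0 counts in all 4 libraries at 14–17 h. Against the floor of 3 counts per library it was at least 11327-fold lower. Next among genes with clear exons was term, followed by Elba3, of an insulator complex of the early embryo, at 146, 151 and 166 CPM at 2–4 h and 0.238, 0.65, 0.644 and 0.294 CPM at 14–17 h (log2 fold change −8.44, SE 0.22), by halo, and by bard at 391, 424 and 433 CPM at 2–4 h and 0.555, 1.17, 3.35 and 0.852 CPM at 14–17 h (log2 fold change −8.18, SE 0.43, −9 without replicate 3 at 14–17 h). link, at 1365, 1016 and 1294 CPM at 2–4 h and 3.89, 9.17, 5.59 and 6.46 CPM at 14–17 h (log2 fold change −7.61, SE 0.28), Neu2 (−7.53, SE 0.14) and BobA (−7.25, SE 0.25), a Bearded family gene, followed. That the windows did not overlap in these genes was a condition of the ranking. On the side that was higher, 6 of the 10 largest changes among genes with clear exons were cuticle protein genes, such as Ccp84Ae at 0.27, 0.0624 and 0 CPM at 2–4 h and 184, 152, 197 and 261 CPM at 14–17 h (log2 fold change 10.69, SE 0.43, 12.93 without replicate 1 at 2–4 h and 9.95 without replicate 3 at 2–4 h). The others were the protease genes Jon99Fi and deltaTry, Muc91C and js.

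The genes with the highest CPM shifted in part. mt:lrRNA, a mitochondrial ribosomal RNA, and mt:CoI led both windows, and mt:lrRNA did not pass the test (−0.17, SE 0.12). eEF1alpha1, a translation elongation factor, fell from 14359 ± 2164 CPM (SD, n = 3) to 7022 ± 530.1 CPM (SD, n = 4). Df31, a chromatin decondensation factor, was among the 5 highest at 2–4 h and stood at 5557, 4817 and 5426 CPM at 2–4 h and 448, 585, 558 and 568 CPM at 14–17 h (log2 fold change −3.29, SE 0.13, adjusted p = 3.9e-09). Mhc and Act57B took such places at 14–17 h.

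The narrow collections, one at the start of the old window and one just after its end, gave different levels for some late genes. Muc91C stood at 1196 and 1046 CPM in the 2 libraries at 14–14.5 h, at 344, 248, 238 and 265 CPM at 14–17 h and at 12.7 and 3.27 CPM at 17–17.5 h. Cpr65Ea stood at 2341 and 2322 CPM at 14–14.5 h and 40.9 and 35.3 CPM at 17–17.5 h, and TwdlC at 950.0 and 916 CPM and 19.1 and 11.9 CPM. FASN1 was higher in the later collection, at 103 and 103 CPM and then 1307 and 1328 CPM. Jon99Fi stood at 6.33 and 9.5 CPM and then at 108 and 95.6 CPM, and its levels at 14–17 h of 219.5, 243, 254 and 109 CPM lay above both. These are values of 2 libraries each, with no test, and how much of the difference falls after the end of the old window was not tested.

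The structure of the changed genes is given as a description, with no test. Only genes that overlap no other gene are counted here, since nested genes share reads. Of the 241 that were at least 16-fold lower, 134 (55.6%) had no intron, against 771 of 5925 (13%) over all such genes. The 241 count copies of repeated histone genes as separate genes, such as His2B:CG33890 and His2B:CG33892, both at least 46.5-fold lower. How far such copies raise the share was not tested. The share was 19% of the 704 genes between 4-fold and 16-fold lower and 7.54% of the 1473 under 4-fold lower. On the side that was higher it was 8.02%, 10.2% and 13.2% from the smallest to the largest change. The median span was 1077 bp in the first class and 2426 bp over all. Counts on whole spans take in intronic reads, and their part in these shares was not tested.

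**Figure D5:**
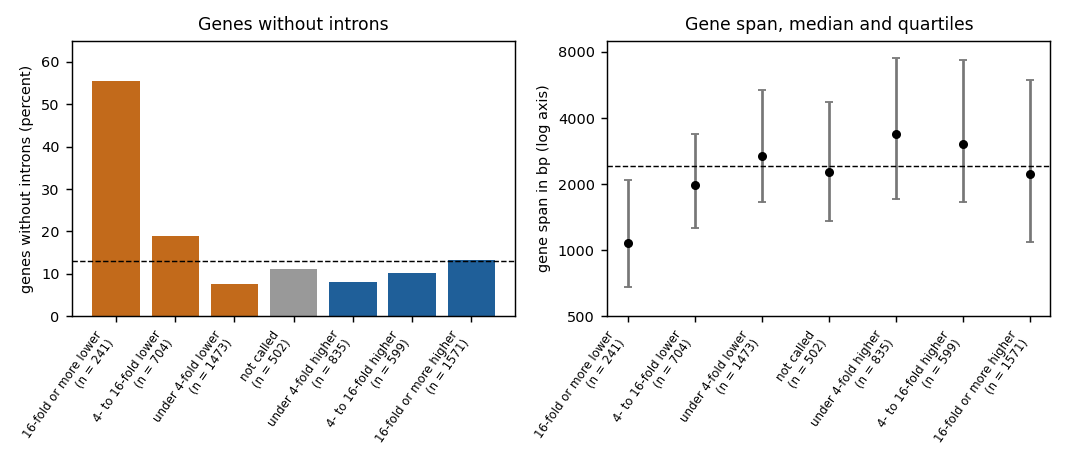
For tested genes that overlap no other gene, one panel gives the percent with no intron and the other the median span in bp with quartiles, by class of change between the windows, and dashed lines mark all such genes. The class at least 16-fold lower has 55.6% intronless genes and a median span of 1077 bp, against 13% and 2426 bp. Copies of repeated histone genes are counted as separate genes.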

How the data were processed

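PolyA RNA of whole Oregon-R embryos was sequenced, and the authors assigned reads to genes of dm6 with Kallisto (version not given in the sources used here; the submitters' processing notes also name CASAVA 1.8.2). The deposited values are estimated counts per gene, not normalized, of which between 19.39% and 22.17% per library were not whole, and they were rounded here. Gene lengths in the files equal the whole gene span for 17502 of 17625 genes found in the Ensembl release 115 annotation.

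The 3 libraries at 2–4 h and 4 at 14–17 h were compared with edgeR 4.0.16 (R 4.3.3): filterByExpr, TMM factors, quasi-likelihood F test, two-sided, Benjamini-Hochberg adjustment over 11623 genes, adjusted p under 0.05. Each SE was taken as the absolute log2 fold change over the root of the F statistic. CPM used TMM factors. Tested on simulated counts with 200 changed genes in 11538, the fit recovered 100%, with 9 false calls. Those changes were all 4-fold, as many up as down, at one fixed dispersion. The simulation cannot show how the fit performs on these data, where 90.6% of genes were called. The replicates are separate collections, and p-values measure the spread between them.

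Members and lists (47, from textbook knowledge) were chosen with earlier results of these data known. In each list, the 2 largest rises and 2 largest falls without overlap of windows and with at least 1 CPM were named by rule. The gene with the highest mean was named too. Over all genes, the rule took the 10 largest changes each way without overlap of windows at 50 CPM or more. It also took the 5 with the highest mean in each window. The same rule among genes with under 10% of exons inside other genes was added after the data were seen, and 83 other genes in the text were chosen after their values were seen. Alternatives were DESeq2 1.42.0, RLE factors, no factors, other filters, all 11 libraries, a replicate block, leaving out each replicate, no mitochondrial genes and genes that overlap no other. A search of promoter motifs was planned and not made, since no sequences were used here. Figures were drawn with matplotlib 3.10.9.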

Additional observations from a re-analysis of the deposited data

Results flagged for a closer look

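In a group of 4 libraries, a value was picked out where the highest or lowest library stood apart from the other 3 by more than Dixon's 95% critical value. Of 329 groups at 14–17 h examined (named genes with a mean of at least 1 CPM there, and list sums), 19 met this, against 16.45 that chance gives at 1 in 20. All values are CPM at 14–17 h. Replicate 1 stood apart in abd-A (155.9, others 142.8 to 144.4), inv (17.11, others 14.41 to 14.77), twe (32.13, others 45.57 to 47.44), zuc (3.465, others 4.269 to 4.325), insc (117.2, others 96.16 to 97.41), Trhn (9.786, others 7.871 to 8.13), VGlut (175.2, others 162.4 to 164.3) and Obp83g (116.8, others 92.86 to 95.45). Replicate 2 stood apart in obst-E (324.3, others 398.2 to 406.2) and Npc2a (26.6, others 25.87 to 25.99). Replicate 3 stood apart in hh (7.454, others 5.448 to 5.756), in the summed glycolytic genes (5079.8, others 4637.2 to 4660.2) and in the summed egg shell and yolk genes that were tested (1.965, others 1.615 to 1.658). Replicate 4 stood apart in eIF4EHP (170.7, others 143.9 to 147.7), mei-41 (2.026, others 2.565 to 2.601), His3.3B (886.6, others 786.4 to 803.5), mRpS7 (50.25, others 41.79 to 42.45), Csp (254.9, others 224.7 to 229.7) and deltaTry (47.58, others 126.6 to 141.9).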

How the results depend on the processing

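Over the 15 alternative fits, 0 of the calls turned direction. The counts of higher and lower genes were 6082 and 4947 with DESeq2, 6039 and 5201 with no filter, 5141 and 4734 with a minimum of 1 CPM in 3 libraries, and 5722 and 5226 with all 11 libraries. With each replicate left out in turn they ran from 5449 to 5630 and from 4814 to 5132, from 2586 to 2721 and from 472 to 508 at 16-fold, and from 117 to 124 and from 472 to 691 for genes present at 2–4 h or 14–17 h only. Counted only over genes that overlap no other gene, which are fewer, 3005 were higher, 2418 lower, 1571 and 241 at 16-fold, and 39 and 217 present in one window only. Over members with clear exons, which are fewer, 7 neuroblast and proneural genes and 11 first zygotic genes were lower and 5 immunity genes higher. With 5 CPM in place of 1 CPM, 59 and 214 were present in one window only. Lower cytosolic ribosomal protein genes numbered 51 with all 11 libraries and from 22 (without 2–4 h replicate 3) to 53 (without 14–17 h replicate 3) with each replicate left out, with 51 without 2–4 h replicate 2. With 1 CPM in 3 libraries, which tests fewer genes, 10 chemoreceptor genes and 1 egg shell or yolk gene were lower, and 2 of the latter without 2–4 h replicate 1. Genes that did not pass the test changed sign: mRpS30 from −0.04 to 0.06 (DESeq2), 0.06 (RLE) and from −0.15 to 0.03 with each replicate left out (0.03 without 2–4 h replicate 1), and GstS1 from 0.07 to −0.01 (all 11 libraries) and from −0.06 (without 2–4 h replicate 2) to 0.12 with each left out. Others were Antp and trx (0.05 and 0.04 with DESeq2 and with RLE), Trl (0.00 with both), Hsp23 (−0.02 with no factors, −0.06 with all 11 libraries, −0.60 to 0.28 with each replicate left out), Hsp26 (0.08 with the block, −0.60 to 0.14 with each left out), Snap25 (−0.00 with all 11 libraries, −0.01 with the block, −0.01 to 0.12 with each left out), inv (−0.03 with all 11 libraries, −0.07 to 0.09 with each left out) and Cpr72Ec (−0.00 to 0.40 with each left out); the cause was not tested. Of the other values for named genes, 4928 kept their direction and side of the threshold, 32 lost it (in 5 genes) and 18 gained it (in 10).

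Same-numbered libraries of the windows share only a number: their deviations correlated at 0.0337, −0.0173 and 0.059. With the replicate block, 5559 genes were higher and 4824 lower. The depth of 14472809 counts in the shallowest library limits genes near the floor. The promoter motif alternative was not run.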
